A study of Mus musculus with 8 samples.

Results

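The protein disulfide isomerase (PDI) family of the endoplasmic reticulum (ER) was followed through 10 genes in the dentate gyrus of mice that lack Derlin-1 or Derlin-2 in the central nervous system. The genes were P4hb, Pdia3, Pdia4, Pdia5, Pdia6, Txndc5, Txndc11, Dnajc10, Erp44 and Erp29. They were chosen by name, through every probe that the deposited tables assign to them. No cutoff on a measured value was applied, but earlier results of these data were known when they were chosen. The array named 26894 genes in all, of which 19893 passed a filter on dim probes. The 10 genes had 18 probes, and all 18 passed.

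All mice were male C57BL/6 animals aged 8 to 9 weeks. Derlin-1 control mice were homozygous for a floxed Derl1 allele and Derlin-2 control mice for a floxed Derl2 allele. The mice of both KO groups came from crosses of these floxed mice with mice carrying Cre recombinase under the nestin promoter, which is active in neural precursors, so that microglia, which do not arise from them, would keep the gene. Each of the 4 groups had 2 arrays, and nothing in the labels says that the 2 arrays of a group came from separate animals, so p-values measure the spread between these samples only. KO and control arrays of a line shared a slide, and the lines did not, so that slide and line cannot be told apart.

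Secretory and membrane proteins form disulfide bonds in the ER. PDI family proteins pass oxidising equivalents from the oxidases Ero1a and Ero1b to their clients, rearrange wrong bonds, or reduce bonds so that a misfolded protein can be threaded back to the cytosol. That last route, ER-associated degradation, uses Derlin-1 and Derlin-2 in the ER membrane. When unfolded proteins accumulate, the unfolded protein response raises chaperones and PDI family members through the transcription factors ATF6 and XBP1, which act on promoters that hold the ER stress response element (ERSE) or the related letters TGACGTG.

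The promoters are shown first because their sequence sets Pdia6 apart from the other genes, although the motif was chosen with results known. RefSeq promoters of GRCm38.p6, each 300 bases from 250 before to 50 after a transcription start, were found for 9 of the 10 genes. The ERSE was searched on both strands as CCAAT and CCACG with 9 bases between them. It was present in 39 of 32851 promoters (0.119%), and among the 9 genes only in that of Pdia6, where it starts 98 bases before the transcription start. The Pdia6 promoter lies at chr12:17266339-17266638 on the plus strand, and the capitals mark the CCAAT and CCACG of the ERSE.
Pdia6: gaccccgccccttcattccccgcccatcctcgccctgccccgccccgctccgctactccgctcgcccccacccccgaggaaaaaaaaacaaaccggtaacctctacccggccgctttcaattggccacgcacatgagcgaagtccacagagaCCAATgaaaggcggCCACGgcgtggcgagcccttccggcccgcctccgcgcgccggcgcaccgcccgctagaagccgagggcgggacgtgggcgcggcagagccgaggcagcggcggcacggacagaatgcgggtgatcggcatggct

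The shorter TGACGTG, also searched on both strands and able to overlap the CCACG of an ERSE, was present in 661 promoters (2.01%). It occurred in 1 of the 3 promoters of Txndc5 and, at 2 places 102 and 51 bases before the start, in 1 of the 2 promoters of Txndc11. This Txndc11 promoter, at chr16:11134483-11134782 on the minus strand, is printed as the gene reads, with both matches in capitals.
Txndc11: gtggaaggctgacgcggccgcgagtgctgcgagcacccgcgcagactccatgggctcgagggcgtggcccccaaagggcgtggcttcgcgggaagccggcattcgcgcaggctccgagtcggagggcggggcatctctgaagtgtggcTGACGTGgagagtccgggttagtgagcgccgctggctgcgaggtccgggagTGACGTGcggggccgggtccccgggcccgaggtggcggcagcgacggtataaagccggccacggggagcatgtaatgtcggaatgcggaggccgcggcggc
The variant ERSE-II, searched on both strands as ATTGG and CCACG with 1 base between them and so sharing the CCACG, occurred in none of the 9 genes and in 12 promoters (0.0365%). With at most 1 mismatch in its fixed letters, the ERSE was found in 1.5% of promoters and in those of Pdia3, Pdia4, Pdia6 and Erp44. A match describes the letters in this window and does not show that a factor binds.

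Outside the 10 genes, an exact ERSE was present in the promoters of Hspa5 (BiP, the ER chaperone of the HSP70 family with which Pdia6 works), Calr and Canx (the lectin chaperones calreticulin and calnexin), and Derl3 (the third Derlin). Windows of 39 bases around these matches are given beside that of Pdia6, each read along the strand on which CCAAT comes first, with CCAAT and CCACG in capitals.
Pdia6, chr12:17266481-17266519, plus strand: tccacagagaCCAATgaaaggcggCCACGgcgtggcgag
Hspa5, chr2:34772015-34772053, plus strand: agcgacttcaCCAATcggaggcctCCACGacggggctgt
Calr, chr8:84847065-84847103, plus strand: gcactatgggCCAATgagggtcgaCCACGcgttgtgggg
Canx, chr11:50325790-50325828, minus strand: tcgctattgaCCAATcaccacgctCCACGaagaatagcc
Derl3, chr10:75893232-75893270, minus strand: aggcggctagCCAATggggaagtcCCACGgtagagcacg
In these windows the match reads along the gene in Pdia6, Hspa5 and Canx and against it in Calr and Derl3.

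Array signals were background-subtracted, log2-transformed and quantile-normalized, and a level below is this log2 signal of a gene's brightest probe. Levels of different probes depend on the probe as well as on the RNA, so each gene was compared only with itself. A change is the mean of the 2 KO arrays minus the mean of the 2 control arrays of the same line, with its standard error (SE) from limma, a linear model that pools the spread over genes. Pearson's r between arrays, over the probes that passed the filter, was 0.987 to 0.995 within a group and 0.965 to 0.985 between lines. Between KO and control arrays of a line it was 0.988 to 0.993, inside the range within a group. The share of probes well above background ranged from 67.5% to 70.3%. All 7 granule neuron markers, among them Prox1 and Calb1, were well above background on all 8 arrays. The same held for all 7 markers each of CA pyramidal neurons, oligodendrocytes and meningeal fibroblasts, so detection alone did not set granule neurons apart. The targeted genes gave a mixed check of the labels. The Derl2 probes had changes of -0.65 ± 0.10 (SE) and -1.05 ± 0.14 in Derlin-2 KO. The Derl1 probes moved in opposite directions in Derlin-1 KO, -0.20 ± 0.10 for the brighter and 0.46 ± 0.12 for the dimmer, and whether they lie in the deleted part was not examined.

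None of the 10 genes passed the threshold of 0.05 after Benjamini-Hochberg adjustment in either line, in the mean of both lines, or in the difference between lines. The smallest adjusted p among their 18 probes was 0.539. The background was as sparse, with 0 of 39933 probes called in the Derlin-1 line (0%), 14 of 39787 in the Derlin-2 line (0.0352%), 4 of 39785 for the mean (0.0101%) and 2 for the difference (0.00503%). The members are therefore described by their values, by whether the arrays of KO and control overlapped, and by the 95% interval of the change, which excludes zero where the unadjusted p is under 0.05. Among the 10 genes this was so for 1 in the mean of both lines (Pdia6), against 2.19% of all genes with a higher level in KO, and for 0 in the difference between lines, against 4.49% of all genes in either direction.

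In the Derlin-1 line, 8 of the 10 genes had a higher mean in KO, where 44% of all genes did. Their median change was 0.22, against -0.02 over all genes. For 6 of them, Pdia6, Pdia5, Pdia4, Pdia3, P4hb and Txndc11, the lowest KO array exceeded the highest control array, and 16.2% of all genes showed this pattern. Dnajc10 alone showed the opposite, both KO arrays below both control arrays, a pattern of 17.9% of all genes. An unadjusted p under 0.05 with a higher level in KO was reached by Pdia6, Pdia5 and Txndc11, 3 of 10 genes, against 2.5% of all genes. Pdia6 alone remained of these 3 without KO replicate 1 of either line or KO replicate 2 of the Derlin-2 line, and in a fit on the 4 arrays of the Derlin-1 line, where Pdia3 joined it. Pdia5 also left this count with the replicate block and without Derlin-1 KO replicate 2 or Derlin-1 control replicate 1, and Txndc11 without Derlin-1 control replicate 2 and in the mean over the probes of a gene. The probes of Pdia4, Pdia5 and Txndc11 were printed in the last eighth of the array's rows, and 5 of the 7 other genes had a higher mean in KO, with a median change of 0.088. With each array scaled to its 75th percentile, 9 of the 10 genes and 57.2% of all probes had a higher mean in KO, in place of 44.9% of all probes. Without Derlin-1 control replicate 2, the array with the lower level in 8 of the 10 genes, the number with a higher mean in KO was 6 and the median change 0.10.

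In the Derlin-2 line, 4 of the 10 genes had a higher mean in KO, against 52.3% of all genes, and the median change was -0.0089. Only Pdia6 had a pair of KO arrays that did not overlap the controls on the higher side, where 17.9% of all genes did, and it was also the only one of the 10 with an unadjusted p under 0.05, a result that 2.39% of all genes reached in that direction. Erp44 had both KO arrays below both control arrays, as did 14.6% of all genes. The number with a higher mean depended on the scaling of the arrays, being 8 of 10 under 75th percentile scaling, with the deposited log2 values, and also without Derlin-2 control replicate 1. Of the 10 changes, 5 lay between -0.04 and 0.04. Pdia6 was the only one of the 10 whose arrays did not overlap in the same direction in both lines, a pattern of 2.85% of all genes.

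**Figure D1:**
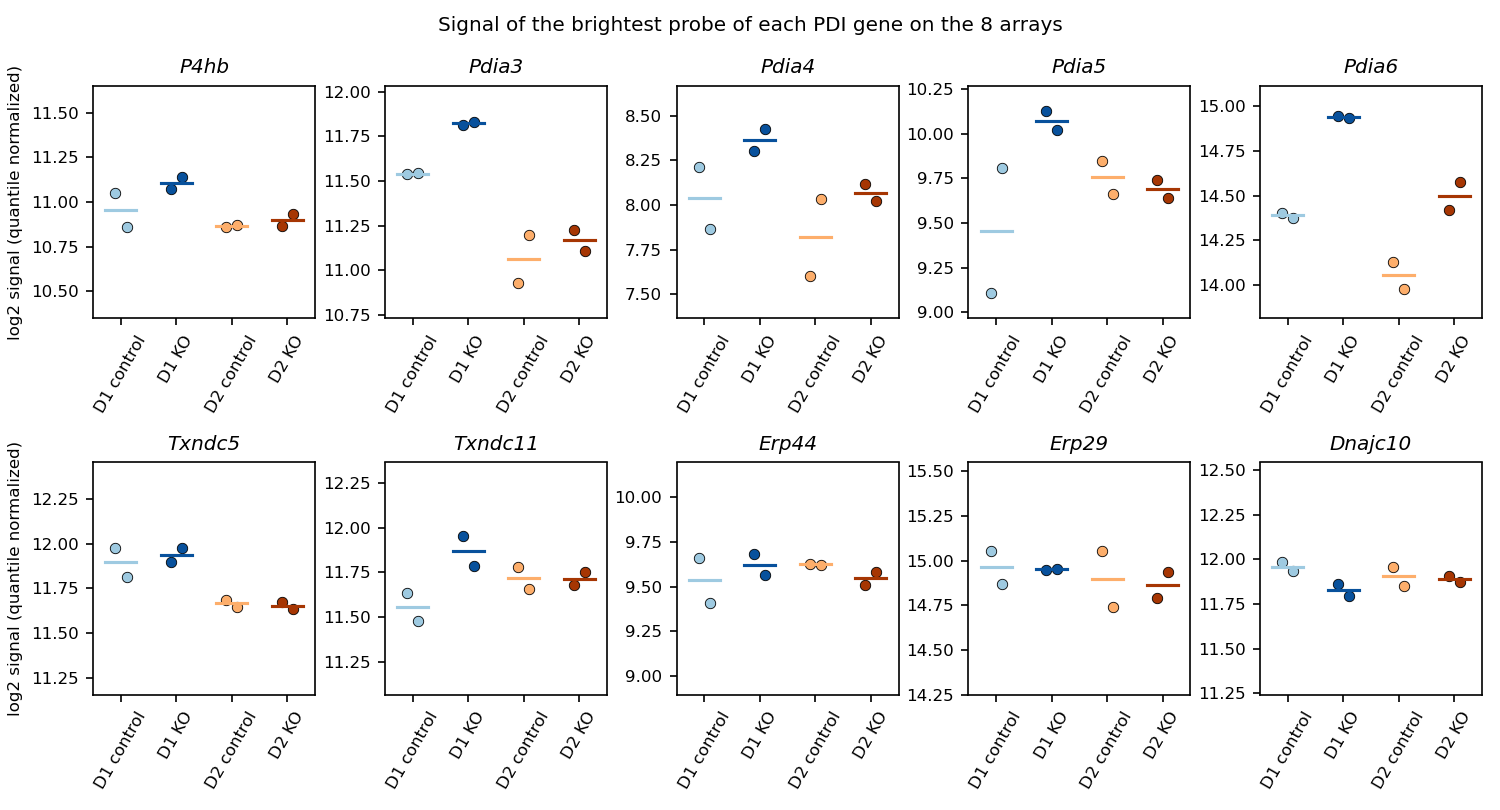
Log2 signal (quantile normalized) of the brightest probe of each of the 10 PDI genes on the 8 arrays. Each point is an array, each horizontal bar the mean of 2 arrays, D1 stands for the Derlin-1 line and D2 for the Derlin-2 line, and all panels span the same range of 1.3 log2 units. In Pdia6, KO and control arrays do not overlap in either line, whereas in Pdia5 control replicate 1 of the Derlin-1 line lies at 9.11, below the other 7 arrays.

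Pdia6 (P5), an oxidoreductase found in complexes with BiP, gave the smallest unadjusted p of the 10 genes in both lines. Its only probe, A_55_P2053491, read 14.40 and 14.38 in Derlin-1 control and 14.95 and 14.94 in Derlin-1 KO. The Derlin-2 line gave 14.13 and 13.98 in Derlin-2 control and 14.42 and 14.58 in Derlin-2 KO. The gap between groups thus exceeded the distance between the arrays of any group in each line. The change was 0.55 ± 0.11 in the Derlin-1 line (1.46-fold, interval from 0.29 to 0.81) and 0.44 ± 0.11 in the Derlin-2 line (1.36-fold, interval from 0.18 to 0.71). The mean of both changes was 0.50 ± 0.08, with an interval from 0.31 to 0.68 and an adjusted limma p of 0.539. The lines differed by 0.11, with a 95% interval from -0.26 to 0.48. Under every alternative run, the change of Pdia6 stayed between 0.54 and 0.59 in the Derlin-1 line and between 0.37 and 0.52 in the Derlin-2 line, and its unadjusted p stayed under 0.05 in both.

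Pdia4 (ERp72), a PDI with additional thioredoxin-like domains that also associates with BiP, was measured by a probe printed in the last eighth of the rows of the array. It read 8.21 and 7.87 in Derlin-1 control and 8.30 and 8.43 in Derlin-1 KO, a change of 0.32 ± 0.19. Derlin-2 controls gave 7.60 and 8.03 and Derlin-2 KO 8.12 and 8.02, a change of 0.25 ± 0.19 in which the groups overlapped. The control arrays of each line lay farther apart than the change itself, and both intervals included zero.

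Pdia5 (PDIR), a PDI linked to the activation of ATF6, had the largest change of the 10 genes in the Derlin-1 line and the widest error. The levels were 9.11 and 9.81 in Derlin-1 control and 10.13 and 10.02 in Derlin-1 KO. The change was 0.62 ± 0.23 with an interval from 0.06 to 1.18 in the limma fit, and it was 0.27 without control replicate 1 and 0.97 without control replicate 2. Levels in the Derlin-2 line were 9.85 and 9.66 in controls and 9.74 and 9.64 in KO, a change of -0.07 ± 0.23. The difference between lines was 0.68, with an interval from -0.11 to 1.47 that includes zero.

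**Figure D2:**
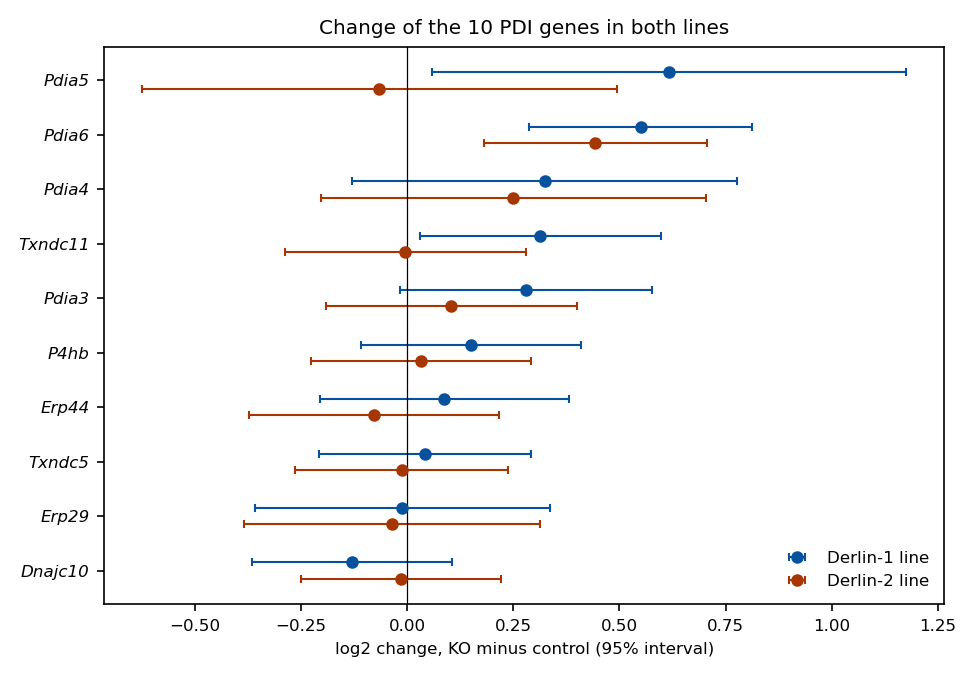
Change of the 10 PDI genes (log2 signal, KO minus control; horizontal axis) in the Derlin-1 line (blue) and the Derlin-2 line (brown). Points are limma estimates from 2 KO and 2 control arrays, and bars are 95% intervals that are not adjusted for the number of genes. The interval of Pdia6 lies above zero in both lines, and those of Pdia5 and Txndc11 lie above zero in the Derlin-1 line.

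The intervals of the remaining PDIs of the ER lumen included zero in both lines. P4hb (PDI itself, which also serves as the beta subunit of collagen prolyl 4-hydroxylase and as a subunit of the lipid transfer protein MTP) read 11.05 and 10.86 in Derlin-1 control and 11.07 and 11.14 in Derlin-1 KO. Its levels in the Derlin-2 line, 10.86 and 10.87 in controls and 10.87 and 10.93 in KO, were nearly the same in both groups. The changes were 0.15 ± 0.11 and 0.03 ± 0.11, and the intervals exclude a change above 0.41 in the first line and above 0.29 in the second.

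Pdia3 (ERp57), which is brought to glycoproteins by calnexin and calreticulin, read 11.54 on both arrays of Derlin-1 control and 11.81 and 11.83 in Derlin-1 KO. Here the KO arrays were set apart from the controls by far more than the arrays of a group differed, and the change was 0.28 ± 0.12, with an interval from -0.02 to 0.58. The Derlin-2 line gave 10.93 and 11.20 in controls and 11.23 and 11.11 in KO, and the groups overlapped, with a change of 0.10 ± 0.12. Txndc5 (ERp46), a PDI rich in secretory cells, read 11.97 and 11.81 in Derlin-1 control, 11.90 and 11.97 in Derlin-1 KO, 11.69 and 11.65 in Derlin-2 control and 11.67 and 11.63 in Derlin-2 KO. Its changes of 0.04 ± 0.10 and -0.01 ± 0.10 were small beside their errors in both lines.

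The PDIs that serve degradation had changes of opposite sign in the Derlin-1 line. Txndc11, a membrane-anchored thioredoxin-domain protein that binds EDEM lectins, read 11.63 and 11.48 in Derlin-1 control and 11.95 and 11.79 in Derlin-1 KO, a change of 0.31 ± 0.12 with an interval from 0.03 to 0.60. Its levels in the Derlin-2 line overlapped, 11.78 and 11.66 in controls against 11.68 and 11.75 in KO, a change of -0.0043 ± 0.12. Dnajc10 (ERdj5), the reductase that works with EDEM1 and BiP, read 11.99 and 11.93 in Derlin-1 control and 11.86 and 11.80 in Derlin-1 KO. Both KO arrays of that line were thus lower than both controls, by a small change of -0.13 ± 0.10 whose interval includes zero. Derlin-2 controls gave 11.96 and 11.85 for Dnajc10 and Derlin-2 KO 11.91 and 11.87, a change of -0.01 ± 0.10.

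Erp44 and Erp29 had intervals that included zero in both lines. Erp44, which returns Ero1 oxidases and other escaped proteins to the ER, read 9.66 and 9.41 in Derlin-1 control and 9.68 and 9.57 in Derlin-1 KO. Derlin-2 controls gave 9.63 and 9.62, both above the 9.51 and 9.58 of Derlin-2 KO. The changes of 0.09 ± 0.12 and -0.08 ± 0.12 had opposite signs, and the difference between them was 0.17 with an interval from -0.25 to 0.58. Erp29, a family member that lacks the redox-active cysteine pair, read 15.06 and 14.87 in Derlin-1 control, 14.95 on both arrays of Derlin-1 KO, 15.06 and 14.74 in Derlin-2 control and 14.79 and 14.94 in Derlin-2 KO. Its changes were -0.01 ± 0.14 and -0.04 ± 0.14, and the intervals exclude a change larger than 0.38 in either direction in both lines.

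For 5 of the 10 genes, further probes measured the same gene, and they did not all repeat the brightest one. The dimmer P4hb probe, at 6.47 to 7.91 over the arrays, changed by 0.03 ± 0.17 for Derlin-1 and by 0.52 ± 0.17 for Derlin-2 with an interval from 0.10 to 0.94, and had both KO arrays (7.63 and 7.91) above both controls (7.07 and 7.43), where the brightest probe had shown no such gap. The dimmer Pdia3 probe changed by 0.05 ± 0.16 and 0.07 ± 0.16, and so did not show the separation seen in Derlin-1 KO. The dimmer Txndc11 probe was well above background on 3 of the 8 arrays only and changed by 0.02 ± 0.22 in the Derlin-1 line. The 2 further probes of Erp29 and the 3 further probes of Dnajc10 had changes from -0.21 to 0.22, and every interval included zero. Pdia6, Pdia4, Pdia5, Txndc5 and Erp44 had 1 probe each, so their values have no such check.

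**Figure D3:**
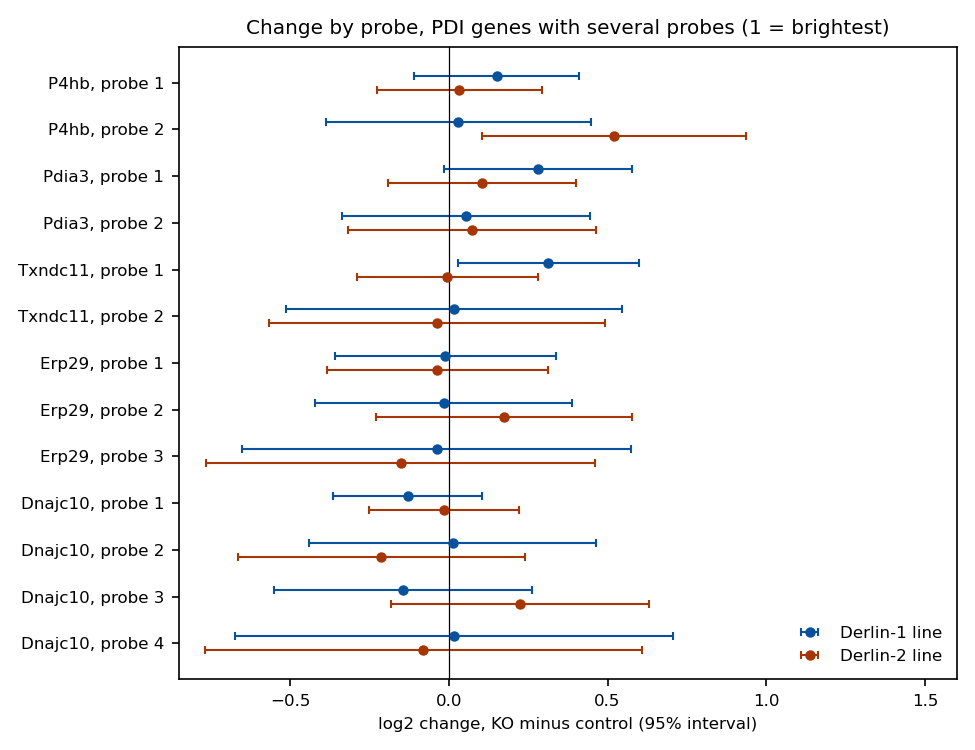
Change (log2 signal, KO minus control; horizontal axis) of each probe of the 5 PDI genes with several probes, numbered from the brightest, in the Derlin-1 line (blue) and the Derlin-2 line (brown), with 95% intervals. The intervals that exclude zero are those of P4hb probe 2 in the Derlin-2 line, at 0.52, and of Txndc11 probe 1 in the Derlin-1 line, at 0.31.

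Among the genes that supply or work with the PDIs, Hspa5 gave the highest change in each line. Hspa5 (BiP) read 13.97 and 13.83 in Derlin-1 control and 14.58 and 14.52 in Derlin-1 KO, and 13.79 and 14.02 in Derlin-2 control and 14.36 and 14.41 in Derlin-2 KO. As in Pdia6, no KO array overlapped a control array of its line. The changes of Hspa5 were 0.65 ± 0.12 and 0.48 ± 0.12 (intervals from 0.36 to 0.94 and from 0.19 to 0.76), and those of its other 2 probes lay between 0.47 and 0.62.

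The lectin chaperones that bring Pdia3 to its clients had non-overlapping, higher KO arrays in the Derlin-1 line. Calr read 12.96 and 13.17 in Derlin-1 control and 13.59 and 13.74 in Derlin-1 KO, but 12.97 and 13.17 against 13.15 and 13.13 in the Derlin-2 line. Its changes of 0.60 ± 0.13 and 0.07 ± 0.13 differed by 0.53 (limma, adjusted p = 0.796). The brightest Canx probe, printed in the last eighth of the rows, changed by 0.36 ± 0.09 and 0.12 ± 0.09. The second Canx probe changed by 0.21 ± 0.12 and 0.08 ± 0.12, with intervals that included zero. Both probes had both KO arrays above both controls in each line. In the Derlin-1 line the brightest Pdia3 probe, at 0.28, lay below Calr and the brightest Canx probe but above the second Canx probe. For Derlin-2 it changed by 0.10.

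The intervals of both Ero1 oxidases included zero in each line. Ero1a, the oxidase that recharges P4hb, read 12.07 and 12.02 in Derlin-1 control, 12.08 and 12.09 in Derlin-1 KO, 11.89 and 12.02 in Derlin-2 control and 12.03 and 11.95 in Derlin-2 KO. Its change was 0.04 ± 0.10 in both lines. Ero1b, the second oxidase, changed by 0.21 ± 0.27 and 0.30 ± 0.27, and Prdx4, the ER peroxiredoxin that also feeds PDIs, by -0.08 ± 0.17 and -0.30 ± 0.17. Of the 13 oxidases, peroxidases and redox selenoproteins, 9 had a higher mean in Derlin-1 KO (median change 0.04) and 7 in Derlin-2 KO (median change 0.0027), and 0 were called. Selenom, an ER selenoprotein, was the only one with an unadjusted p under 0.05 by its brightest probe, with changes of 0.26 ± 0.10 and -0.11 ± 0.10. By its dimmer probe, Prdx4 changed by -0.43 ± 0.12 and 0.38 ± 0.12, with intervals excluding zero in both lines.

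By their brightest probes, the other PDI family proteins gave no unadjusted p under 0.05 in either line. The dimmest of the 4 probes of Tmx4, a membrane-bound thioredoxin-like protein, well above background on 6 of the 8 arrays, changed by 0.05 ± 0.11 and -0.56 ± 0.11, whereas the brightest changed by -0.11 and -0.02. Of the 14 listed, 12 passed the filter, 8 of the 12 had a higher mean in Derlin-1 KO (median change 0.06) and 4 in Derlin-2 KO (median change -0.01). Creld2, a disulfide isomerase with an exact ERSE in its promoter, changed by 0.30 ± 0.19 in the Derlin-1 line and by -0.0005 ± 0.19 for Derlin-2. Of the 13 partners and clients, which include Hspa5, Calr and Canx, 9 had a higher mean in Derlin-1 KO (median change 0.07) and 6 in Derlin-2 KO (median change -0.03). P4ha1 and P4ha3, subunits that pair with P4hb in collagen prolyl 4-hydroxylase, had lower means in Derlin-2 KO, with changes of -0.42 ± 0.12 and -0.52 ± 0.19 (intervals excluding zero), whereas both changed by -0.07 in the Derlin-1 line. The second P4ha1 probe changed by -0.16 and 0.15. The P4ha3 probe was dim, at 4.52 to 5.24, though well above background on all 8 arrays. Under the alternatives, the change in the Derlin-2 line lay between -0.56 and -0.14 for P4ha1 and between -0.70 and -0.18 for P4ha3. The change of the brightest P4hb probe in Derlin-2 KO was 0.03.

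**Figure D4:**
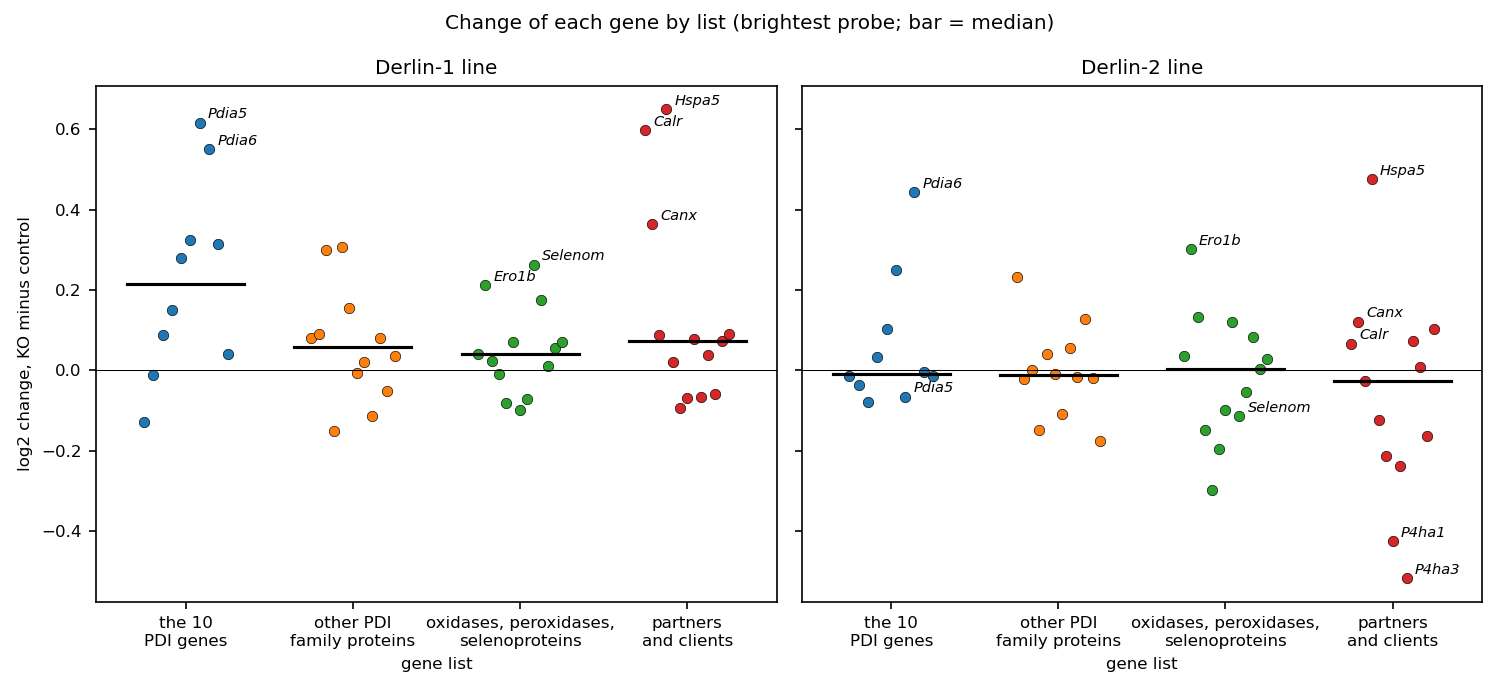
Change (log2 signal, KO minus control; vertical axis) of each gene by its brightest probe, in the 10 PDI genes and in 3 lists of related genes, with the Derlin-1 line on the left and the Derlin-2 line on the right. Points are genes and bars are medians, which for the PDI genes are 0.22 and -0.0089. Pdia6 and Hspa5 lie near the top of their columns in both panels, and Pdia5, Calr and Canx do so on the left.

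The motif and the changes can be set side by side as a description, since the motif was chosen with results known. Of the 37 genes with an exact ERSE in a RefSeq promoter, 23 were measured past the filter, and Pdia6 was the only one of the 10 among them. For Derlin-1, 18 of the 23 had a higher mean in KO (all genes 44%), with a median change of 0.14. For Derlin-2, 15 of the 23 did (all genes 52.3%), with a median change of 0.05. KO arrays exceeded the controls without overlap in both lines for 6 of the 23, Canx, Derl3, Dnajc3, Hspa5, Pdia6 and Syvn1, against 2.85% of all genes. KO arrays lay below the controls without overlap for 0 of the 23 in the Derlin-1 line, against 17.9% of all genes. In the Derlin-2 line they did so for 3 of the 23, against 14.6% of all genes. None of the 23 was called after adjustment. Derl3 had the highest change of the 23 in each line, 2.12 ± 0.28 and 1.21 ± 0.28. Without Pdia6, Hspa5, Calr, Canx and Derl3, the median changes of the other 18 were 0.10 and 0.02. Of these 18, 2 (Dnajc3 and Syvn1) had KO arrays above the controls without overlap in both lines. In the Derlin-1 and Derlin-2 lines, Dnajc3 changed by 0.13 and 0.32, and Syvn1 by 0.11 and 0.05.

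**Figure D5:**
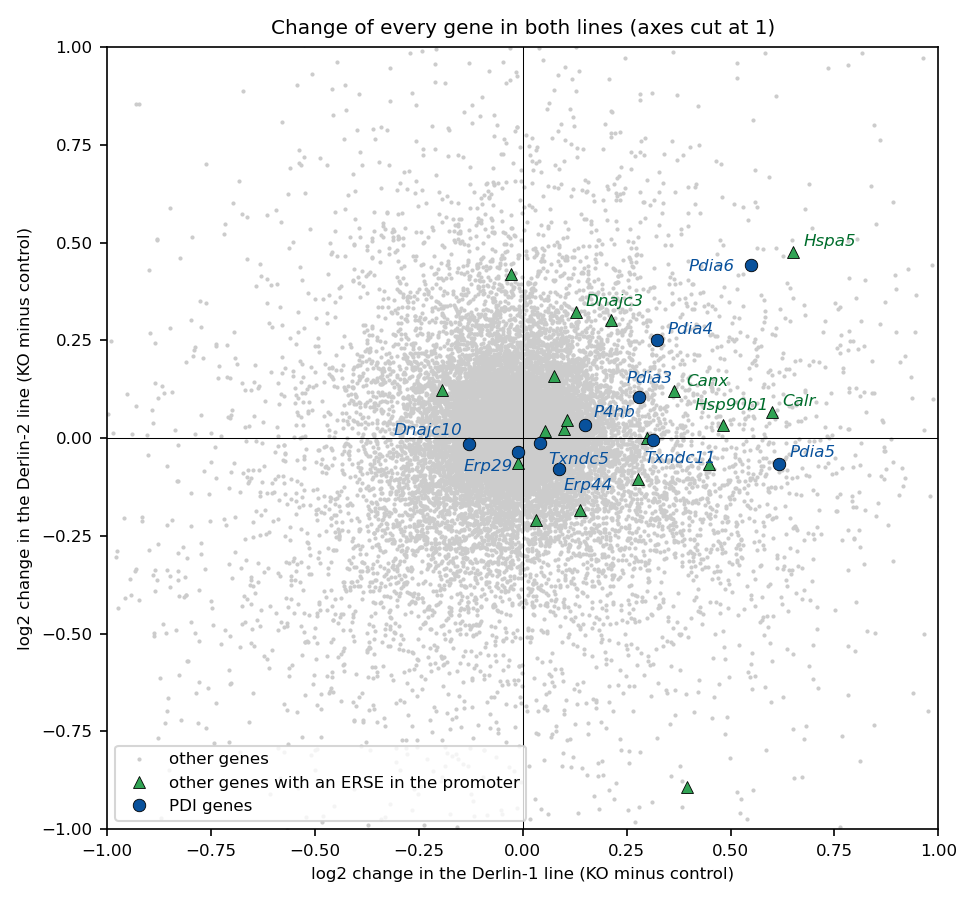
Change of every gene past the filter in the Derlin-1 line (horizontal axis) and in the Derlin-2 line (vertical axis), both as log2 signal, KO minus control, by the brightest probe. Blue points are the 10 PDI genes, green triangles are other genes with an exact ERSE in a promoter, grey points are the remaining genes, and values beyond 1 in either direction, among them Derl3, are not drawn. Pdia6 (0.55 and 0.44) lies beside Hspa5 (0.65 and 0.48), and Dnajc10 and Erp29 lie close to zero.

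The genes whose profile over the 8 arrays was most like the mean of the 10 genes, after each line's own mean was removed, were Defa-rs10, Rpl10, Gpr25, Psme3 and Ap4s1, with Pearson's r from 0.969 to 0.988 among 18050 genes ranked. Canx was the sixth of this ranking at 0.964, and Hspa5 was number 65 at 0.901. Derl3 was number 108 at 0.874 and Calr number 199 at 0.828. These correlations describe 8 arrays that share their slides and their hybridisation, and Rpl10 has near-identical copies in the genome that its probe may also detect.

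The values of several marker lists also differed between KO and control of the Derlin-1 line, but no gene of these lists was called after adjustment. By their brightest probes, 6 of the 7 choroid plexus markers had a higher mean in Derlin-1 KO, with a median change of 0.38. Their summed linear signal was 1426 to 1583 in controls and 1634 to 1740 in KO. The second probes did not all repeat this. Those of Folr1, Otx2 and Cldn2 changed by -0.32, -0.50 and -0.66, with both KO arrays below both controls, and that of Ttr by 0.65. All 3 plasma and B cell markers measured, Jchain, Cd79a and Mzb1, were higher there by a median of 0.64, with sums of 54.3 to 67.5 in controls and 83.5 to 99.1 in KO, and 0 of the 3 were well above background on all arrays. All 6 immediate early genes were higher by a median of 0.31 (sums of 20513 to 20852 and 23351 to 25358). All 3 blood markers were lower, with a median change of -0.66, but their sums overlapped (25345 to 54912 and 26096 to 28824). All 6 microglial markers were lower as well, with a median change of -0.13 (27792 to 28464 and 24214 to 25442). The median changes there were -0.16 for granule neurons, 0.21 for CA pyramidal neurons, 0.18 for meningeal fibroblasts, -0.03 for oligodendrocytes, 0.0063 for astrocytes and -0.00055 for endothelium. The astrocyte sums of that line did not overlap either, at 44585 to 45651 in controls and 46356 to 46733 in KO. For Derlin-2, the sums overlapped between groups for choroid plexus (1928 to 4327 in controls and 2119 to 4742 in KO) and immediate early genes. Those of plasma and B cells were 57.2 to 66.4 in controls and 40.5 to 55.9 in KO. The sums also did not overlap for blood (42981 to 49253 in controls and 40216 to 40716 in KO), meningeal fibroblasts (11169 to 12437 and 7735 to 10638) and endothelium (8473 to 9149 and 9316 to 9974). The median changes were -0.11 for blood and 0.13 for endothelium. Gene by gene, 5 of the 7 meningeal markers had a higher mean in Derlin-2 KO, with a median change of 0.23, although their sum was lower. Plasma cells, as secretory cells, are rich in PDIs, and the part of these cells in the changes of the 10 genes was not tested. In a dissected tissue, a different share of cells and a different amount of RNA per cell cannot be told apart.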

How the data were processed

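Total RNA of the dentate gyrus (150 ng) was labelled with Cy3 and hybridised to 8 Agilent SurePrint G3 mouse arrays, 2 for each of 4 groups taken from the sample titles. Per the file headers, the deposited intensity of each spot was background-subtracted and detrended with Agilent Feature Extraction 10.7.1.1, and other columns, per the file headers, hold flags for outlier spots and for signal well above background. The authors' deposited log2 values, from GeneSpring's quantile normalization with a baseline at the median of all samples, served as an alternative only. The authors' own fold changes in the same tables were not used.

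The 3671 control spots and flagged outliers were left out, a floor of 1 was set, quantile normalization followed on the log2 scale, and repeated spots were averaged to 56605 probes. Probes well above background on both arrays of at least 1 group were kept (39937). Group means were fitted with limma 3.58.1 (R 4.3.3), with 4 residual and 2.08 prior degrees of freedom, and two-sided p-values were adjusted by Benjamini-Hochberg over all probes tested. An exact test of 2 against 2 arrays cannot give a two-sided p below 0.333. The number of arrays limits the precision. The procedure was tested on simulated data. Promoters came from RefSeq tables for GRCm38.p6. The array was designed on an older assembly, so probe positions are not given. The older symbols Ero1l and Ero1lb were read as Ero1a and Ero1b.

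The genes, lists, motifs and tests were chosen with earlier results of these data known. The text names all 10 genes, Derl1 to Derl3, Ero1a, Ero1b, Prdx4 and Hspa5, genes of the 3 lists of related genes whose brightest probe had an unadjusted p under 0.05 in a line or the mean, and the 5 most similar profiles. Syvn1, Dnajc3, Creld2, Tmx4 and the marker genes were named after their values were seen. The labels give the replicate numbers no meaning. The correlation of the deviations of same-numbered arrays was 0.328 for Derlin-1 and -0.155 for Derlin-2, so the numbers were not used as pairs. Alternatives covered scaling, background correction, filters, probe choice, the fit and each array left out.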

Additional observations from a re-analysis of the deposited data

Results flagged for a closer look

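The difference between the lines was tested as an interaction in the same limma fit. Its unadjusted p was under 0.05 for 7 probes of the 10 PDI genes, the Derlins and the genes named from the lists, markers included. None of these differences passed after adjustment (adjusted limma p from 0.544 to 0.847). None of the 18 probes of the 10 PDI genes was among the 7. Over the whole array, 2322 of the 39785 probes tested (5.84%) lay under the same threshold. The 7 come from a chosen set, and whether they exceed that share was not tested. Of the 7, 2 report Derl2, and those of Tmx4 and Jchain belong to genes named after their values were seen. The Calr change in the Derlin-1 line exceeded that in the Derlin-2 line by 0.53 (0.60 against 0.07). For Selenom the difference was 0.38 (0.26 against -0.11). The dimmer Prdx4 probe, which was well above background on 7 of 8 arrays, differed by -0.81, with both KO arrays below both controls in the Derlin-1 line (-0.43) and above them in the Derlin-2 line (0.38), whereas the brighter Prdx4 probe was lower in both lines. The Derl2 probes, which report the gene deleted in the Derlin-2 line, differed by 0.71 and 1.08. The dimmest Tmx4 probe differed by 0.61 (0.05 against -0.56) and Jchain, a plasma cell marker well above background on 6 of 8 arrays, by 1.75 (0.51 against -1.24). The probe that measures Derl3, a gene deleted in neither line, missed this threshold with a difference of 0.91 (2.12 against 1.21).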

How the results depend on the processing

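None of the 10 PDI genes gained a call under any alternative run. Of 931 values of single genes and comparisons under the alternatives, 36 turned their sign and none passed the threshold. The median change of the 10 genes in the Derlin-1 line, 0.22, was 0.13 over all kept probes of each gene and 0.088 without the probes of the last eighth of the rows, which leave 7 genes. For the mean of both lines, the median without those rows was 0.014 in place of 0.12. With single arrays left out, the Derlin-1 median lay between 0.10 and 0.26, and that of the difference between lines from 0.031 to 0.19. The number of the 10 genes higher in both lines, 4, was 7 under 75th percentile scaling and 7 from the deposited values, where the median of all probes in the Derlin-1 line was 0.03 and 0.02 in place of -0.02.

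In the Derlin-2 line 14 probes were called. It was 29 without the filter, 2 with normexp (run on median signals, since mean signals were not in the files used), 4 without the last rows, 2 with probes well above background on all arrays and 0 in a fit on the line's 4 arrays. With the replicate number as a block it was 6, with 0 for the mean of both lines and 0 for the difference in place of 4 and 2. The block changed no other call, and every adjusted p of Pdia6 under it was above 0.65. The crossed numbering, chosen after seeing the data, called 5, 0 and 0. For the mean, 2 probes were called from the deposited values and 7 without the filter, and 0 with normexp, without the last rows or with the stricter filter. For the difference, 0 were called without the filter, with normexp, without the last rows and with the stricter filter. Leaving out single arrays gave 0 to 1 calls in the Derlin-1 line, 3 to 50 in the other (50 without control replicate 1 of that line, 25 without its control replicate 2 and 3 to 6 without any other array), 0 to 20 for the mean and 0 to 16 for the difference, the highest again without Derlin-2 control replicate 1. The cause of these shifts was not tested.

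The values that turned their sign follow. In the Derlin-2 line, the deposited values and 75th percentile scaling gave 0.022 and 0.020 for Txndc5, 0.028 and 0.026 for Txndc11, 0.042 and 0.040 for Erp29 and 0.011 and 0.0091 for Dnajc10, and normexp gave 0.0067 for Txndc11. In the Derlin-1 line they gave 0.029 and 0.040 for Erp29 and 0.10 and 0.12 for P4ha3. The mean over probes gave 0.04 for Prdx4 in the Derlin-2 line and 0.13 for Derl1 in the Derlin-1 line. When single arrays were left out, the ranges in the Derlin-2 line were -0.030 to 0.24 for Pdia3, -0.16 to 0.03 for Pdia5, -0.033 to 0.0063 for Txndc5, -0.065 to 0.057 for Txndc11, -0.19 to 0.12 for Erp29, -0.069 to 0.040 for Dnajc10, -0.034 to 0.17 for Calr, -0.032 to 0.10 for Ero1a and -0.12 to 0.73 for Ero1b. In the Derlin-1 line they were -0.038 to 0.12 for Txndc5, -0.040 to 0.21 for Erp44, -0.10 to 0.082 for Erp29, -0.24 to 0.10 for P4ha3 and -0.26 to 0.10 for Prdx4. With 2 arrays a group, changes as small as those of most of these genes were not detectable, and the dimmer Txndc11 probe was near background.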
